A study of Homo sapiens with 12 samples.

Results

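The complement genes that macrophages transcribe were followed across 12 RNA-seq libraries of THP-1 macrophages, and one of them changed clearly. SERPING1, which encodes the C1 inhibitor, fell 3.18-fold when the macrophages were cultured with MMP28-overexpressing pancreatic cancer cells (log2 fold change -1.67, SE 0.17), and it stayed below the control level when IL-8 or VEGFA was neutralized. C3, the most abundant of these transcripts, did not pass the test in any comparison. C2 was higher in the anti-IL-8 group than in control (log2 fold change 0.59, SE 0.19), a call kept in 14 of 22 alternative analyses. The members were chosen by gene symbol: C1QA, C1QB, C1QC, C1R, C1S, C2, C3, CFB, SERPING1 and C3AR1. These are 10 of the 58735 genes in the count table, and every symbol was found once. Of the 10 members, 6 passed a filter on low counts (C3, C3AR1, SERPING1, C2, C1R and C1S), while CFB, C1QA, C1QB and C1QC did not.

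Complement is a cascade of plasma proteins that tags microbes, dying cells and debris. C1q recognizes the target and switches on the proteases C1r and C1s, which cut C4 and C2 to build an enzyme that cleaves C3. Factor B supplies the matching protease of the alternative pathway, C1 inhibitor blocks C1r and C1s, and C3aR1 is the receptor of the small C3 fragment C3a. The liver makes most of the plasma pool, and macrophages are known as a local source of C1q, C2, C3 and factor B. SERPING1, C2 and CFB are known to respond to interferon.

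All 12 libraries came from THP-1 cells, a human monocytic leukaemia line, turned into macrophages with phorbol ester and called tumor-associated macrophages (TAMs) in the study. The TAMs shared their medium, through a porous membrane, with AsPC-1 cells, a human pancreatic cancer line. In the control group the AsPC-1 cells carried empty lentivirus, and in the OE-MMP28 group they carried lentivirus that overexpresses MMP28, a secreted metalloproteinase. The anti-IL-8 and anti-VEGFA groups combined OE-MMP28 cells with a neutralizing antibody (MAB208 or MAB293), so MMP28 overexpression was common to these 3 groups. None of the 4 groups was named for a control antibody, so the effect of adding any antibody and the loss of the cytokine cannot be told apart. Each group had 3 libraries, and whether they were separate cultures was not stated, so p-values measure the spread between these libraries only.

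The libraries held 15852346 to 18701195 counts, and 3 counts, the number a count of 0 still allows, correspond to 0.160 to 0.189 CPM (counts scaled to library size). MMP28 itself had 0 counts in every library, so the overexpression in the cancer cells cannot be checked in these macrophage libraries. All 12 macrophage markers had counts, but CD68 had only 0 to 5 counts per library, and 81.7% of its exonic bases also lie in an exon of a readthrough gene annotated on the same strand. CD14 had 11260 to 28850 counts and ITGAM had 6266 to 10445, while LYZ was low at 76 to 182 counts (4.83 to 10.0 CPM). The epithelial marker EPCAM was at 0 in all libraries, and the 10 epithelial markers summed to 3.13 to 6.34 CPM, against 4351 to 6540 CPM for the macrophage list. The mitochondrial share of counts ran from 6.92% to 17.8%, with replicate 2 of anti-VEGFA the highest.

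Expressed per length, the members spanned averages from 90.2 down to 0.0111 in the deposited FPKM values (read fragments scaled to exonic length and library size). C3 averaged 90.2 ± 14.4 FPKM (SD, n = 12 libraries) and ranked 413 among 16046 genes tested. C3AR1 followed at 11.6 ± 1.92 FPKM, and the ranges of these 2 genes, 74.1 to 113 and 8.89 to 14.0 FPKM, lay apart. SERPING1 averaged 2.84 FPKM (1.40 to 5.61 across libraries) and C2 averaged 2.35 FPKM (1.58 to 3.12), so their order was not resolved. C1R at 0.416 ± 0.123 FPKM and C1S at 0.258 ± 0.0826 FPKM also had overlapping ranges. CFB averaged 0.0741 FPKM, and C1QA, C1QB and C1QC averaged 0.0396, 0.0156 and 0.0111 FPKM.

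**Figure D1:**
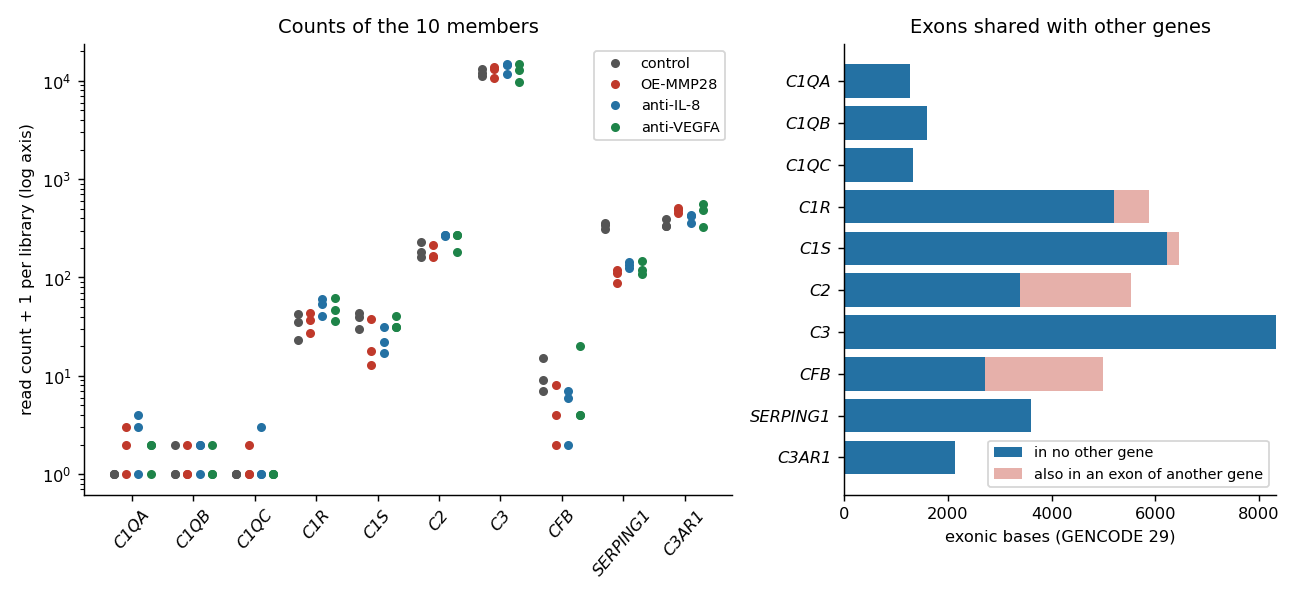
Left, read count plus 1 of each member (log axis), with 1 point per library coloured by group. Right, exonic bases of each member in GENCODE 29, split by whether another annotated gene has an exon over them. C3 stood highest with 9792 to 14660 counts, the C1q chains had at most 3 counts in a library, and C2 and CFB shared the largest parts of their exons.

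The recognition molecule of the classical pathway was close to absent. C1QA, on chromosome 1 at 22636506 to 22639608 (GRCh38, plus strand), had 0 counts in all control libraries, 0, 1 and 2 counts in OE-MMP28, 0, 2 and 3 in anti-IL-8 and 1, 0 and 1 in anti-VEGFA. C1QB had 5 counts over all libraries together and C1QC had 3. No group stood clear of the others at this depth, since all these counts were at or under 3 per library, and no fold change is given. The 3 genes encode the 3 chains of C1q, and their exons are covered by no other annotated gene.

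The proteases of the C1 complex were low but measured. C1R (chromosome 12, 7080199 to 7092607, minus strand) had 34, 22 and 41 counts in control, 36, 26 and 43 in OE-MMP28, 53, 60 and 40 in anti-IL-8 and 35, 46 and 61 in anti-VEGFA. Scaled for library size, these were 2.01, 1.27 and 2.43 CPM in control and 3.41, 3.56 and 2.60 CPM in anti-IL-8, so the libraries of the 2 groups did not overlap. The log2 fold change between them was 0.75 (SE 0.30, unadjusted p = 0.021), and the Benjamini-Hochberg adjusted p of edgeR's quasi-likelihood test was 0.079. It was called in 1 of 22 alternatives, the fit of these 2 groups alone (adjusted p = 0.029). C1R shares 672 exonic bases (11.4%) with C1RL, a neighbouring protease gene on the same strand.

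C1S, the partner protease of C1R, lay lower in OE-MMP28 than in control in 2 of 3 libraries. Its values were 2.48, 2.25 and 1.72 CPM in control, 2.03, 0.702 and 1.06 CPM in OE-MMP28, 1.35, 1.78 and 1.04 CPM in anti-IL-8 and 1.78, 1.90 and 2.13 CPM in anti-VEGFA. OE-MMP28 replicate 1 fell inside the control range, and the difference did not pass (log2 fold change -0.75, SE 0.35, adjusted p = 0.33). The anti-VEGFA and anti-IL-8 groups met at 30 counts, in anti-VEGFA replicates 1 and 2 and anti-IL-8 replicate 2, and differed by a log2 fold change of 0.48 (SE 0.35, adjusted p = 0.53). These values rest on 12 to 42 counts per library.

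C2 and CFB, the paired proteases of the classical and alternative pathways, sit end to end on chromosome 6, C2 at 31897785 to 31945672 and CFB at 31945650 to 31952084, both on the plus strand. Their RefSeq promoter windows, each from 250 bases before to 50 bases after the annotated start (GRCh38.p14), are shown because C2 was the member that rose and because both genes are known interferon targets. Capitals mark matches to the interferon-stimulated response element TTTCNNTTTC and the gamma-activated site TTCNNNGAA, where N is any base. The C2 window covers chr6:31897533-31897832 (plus strand) and the CFB window chr6:31945845-31946144 (plus strand).
C2: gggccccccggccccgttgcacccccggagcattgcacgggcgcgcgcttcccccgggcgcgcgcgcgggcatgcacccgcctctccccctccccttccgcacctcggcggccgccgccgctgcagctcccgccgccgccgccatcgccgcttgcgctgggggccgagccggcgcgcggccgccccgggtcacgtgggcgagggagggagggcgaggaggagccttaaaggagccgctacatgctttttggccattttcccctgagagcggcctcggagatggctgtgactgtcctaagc
CFB: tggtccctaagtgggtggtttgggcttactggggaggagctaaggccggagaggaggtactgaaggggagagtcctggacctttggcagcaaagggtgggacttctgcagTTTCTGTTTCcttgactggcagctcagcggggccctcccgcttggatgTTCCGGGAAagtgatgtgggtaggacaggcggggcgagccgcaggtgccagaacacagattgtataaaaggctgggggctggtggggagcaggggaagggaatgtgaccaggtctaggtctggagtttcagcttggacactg

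The CFB window held the response element from 140 bases and the activated site from 92 bases before the start. The C2 window shown, like the other window listed for C2, held neither. On either strand, the first motif occurs in 3.65% of 27305 RefSeq promoters and the second in 7.88%. Windows were found for 6 members, C1QA, C1QB, C1R, C2, CFB and C3AR1, of which 1 held the first motif and 3 held the second (C1QA, C1R and CFB). The shares count 1 window per gene, whereas C1QA, C1R and C2 had more than 1 and a match in any was counted. The first window listed for C1R held no match, so the member counts and the shares are not on the same basis. A match describes the letters in the window and is not a measured binding site.

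C2 was highest in the anti-IL-8 group. Its values were 10.6, 13.3 and 9.42 CPM in control, 8.85, 9.65 and 13.2 CPM in OE-MMP28, 17.4, 15.8 and 16.9 CPM in anti-IL-8 and 10.6, 17.3 and 14.4 CPM in anti-VEGFA. All anti-IL-8 libraries lay above all control and OE-MMP28 libraries, while the anti-VEGFA libraries overlapped every group. C2 rose in anti-IL-8 against control (log2 fold change 0.59, SE 0.19, 95% interval 0.18 to 0.99, adjusted p = 0.040). Against OE-MMP28, where only the antibody differed, the log2 fold change was 0.66 (SE 0.19, unadjusted p = 0.0031) and the adjusted p was 0.063. The OE-MMP28 and control groups differed by a log2 fold change of -0.08 (95% interval -0.49 to 0.34).

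The call for C2 was narrow. Of 22 alternative analyses, 14 kept it against control, with adjusted p-values from 0.0017 to 0.16. It was lost on leaving out control replicate 1 (0.11) or 3 (0.16), or anti-IL-8 replicate 1 (0.10), 2 (0.058) or 3 (0.10). The other losses came with library totals in place of TMM and in both limma fits on log2 FPKM. Against OE-MMP28, 5 of 22 called it, among them the fits without OE-MMP28 replicate 3 (adjusted p = 0.0083) and without anti-VEGFA replicate 2 (0.046). Across all alternatives its log2 fold change stayed positive in both comparisons, from 0.43 to 0.74 against control and from 0.48 to 0.87 against OE-MMP28. The low ends, 0.43 and 0.48, came from the limma fit on log2 of FPKM plus 1, where the added 1 shrinks the value.

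The level of C2 depends on how reads over shared exons were assigned. A readthrough gene, AL645922.1, runs over both genes on the same strand and covers 1820 exonic bases of C2 (32.9%) and 2249 of CFB (45.0%), and it had 0 counts in all libraries. How reads that hit several genes were handled is not given in the sources used here. Scaled to the exonic bases free of other genes on the same strand, C2 came to a length-scaled level of 3.53, with a range of 2.47 to 4.45 over the libraries, and SERPING1 came to 2.89 (1.46 to 5.88), so their order was not resolved on this scale either. CFB came to 0.141 on that scale.

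CFB was rare in all groups, with 8, 6 and 14 counts in control, 7, 3 and 1 in OE-MMP28, 1, 5 and 6 in anti-IL-8 and 19, 3 and 3 in anti-VEGFA. Anti-VEGFA replicate 1 held 19 of 76 counts over all libraries. The control and OE-MMP28 counts overlapped, and CFB did not enter the test.

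C3, the central component of the cascade, did not separate the groups. Its values were 777, 639 and 705 CPM in control, 728, 626 and 869 CPM in OE-MMP28, 943, 692 and 936 CPM in anti-IL-8 and 871, 622 and 694 CPM in anti-VEGFA. Every group overlapped every other, and C3 accounted for 0.0585% to 0.0925% of the counts of a library. Between OE-MMP28 and control the log2 fold change was 0.07 (95% interval -0.28 to 0.41), and its furthest value was 0.28 (95% interval -0.07 to 0.62), in anti-IL-8 against control. With 9792 or more counts in each library, counting error was small beside the spread between libraries.

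The second replicate was the lowest C3 library in 4 of 4 groups. The same held for C3AR1, in 4 of 4 groups, while for SERPING1 it held in 2 and for C2 in 1. Among all tested genes, 582 of 16046 (3.63%) had replicate 2 lowest in every group.

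SERPING1, the inhibitor of C1r and C1s, separated the control group from all others. Its gene lies on chromosome 11 at 57597387 to 57614853, on the plus strand, with no exon shared with another gene. Control libraries held 20.1, 20.4 and 18.3 CPM (340, 354 and 309 counts), OE-MMP28 libraries 6.49, 5.09 and 6.93 CPM (118, 87 and 111 counts), anti-IL-8 libraries 9.27, 7.35 and 8.69 CPM and anti-VEGFA libraries 8.61, 6.79 and 6.24 CPM. The lowest control library was above the highest of the other 9 libraries. The group means were 19.6 ± 1.15 CPM in control, 6.17 ± 0.96 in OE-MMP28, 8.44 ± 0.98 in anti-IL-8 and 7.22 ± 1.24 in anti-VEGFA (SD, n = 3 each).

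SERPING1 fell in OE-MMP28 against control, with a log2 fold change of -1.67 (95% interval -2.03 to -1.31, edgeR adjusted p = 3.5e-06). It also fell against control in anti-IL-8 (log2 fold change -1.22, SE 0.17, adjusted p = 0.00011) and in anti-VEGFA (-1.44, SE 0.17, adjusted p = 1.8e-05). The 3 comparisons share the control libraries. Each call held in 22 of 22 alternatives, with log2 fold changes from -1.75 to -1.25 for OE-MMP28 against control. The -1.25 end came from the limma fit on log2 of FPKM plus 1, where the added 1 shrinks the value.

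SERPING1 did not pass the test between the anti-IL-8 and OE-MMP28 groups, although their libraries did not overlap. The lowest anti-IL-8 library (7.35 CPM) was above the highest OE-MMP28 library (6.93 CPM), with a log2 fold change of 0.45 (SE 0.17, unadjusted p = 0.019, adjusted p = 0.11). Leaving out OE-MMP28 replicate 3 brought the adjusted p to 0.040, the only one of 22 alternatives that called it. The anti-VEGFA libraries overlapped those of OE-MMP28, with a log2 fold change of 0.23 (95% interval -0.14 to 0.60, adjusted p = 0.50). The 2 antibody groups differed by -0.23 (anti-VEGFA against anti-IL-8, 95% interval -0.59 to 0.14, adjusted p = 0.55).

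Summed levels of cell-type markers also differed between OE-MMP28 and control. The macrophage markers summed to 4351 to 4813 CPM in control and 5047 to 6456 CPM in OE-MMP28. This sum is weighted to abundant genes such as LAPTM5 (1595 to 2142 CPM over all libraries) and CD14 (650 to 1771 CPM). Of the same list, ITGAM was lower in OE-MMP28 (496 against 557 mean CPM), without overlap and not called. The epithelial markers summed to 4.62 to 6.34 CPM in control and 3.13 to 4.06 CPM in OE-MMP28, with MUC1 the largest of them at 28 to 65 counts per library and KRT8 at no more than 7. The fibroblast list summed to 3.18 to 3.54 CPM in control and 1.87 to 2.64 CPM in OE-MMP28, with COL1A1 at 29 to 58 counts per library and LUM at 0. These sums do not give the SERPING1 RNA that epithelial cells or fibroblasts would hold, and the part of such cells in its change was not tested. In bulk samples, fewer cells that express a gene and less RNA per cell cannot be told apart.

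Interferon-stimulated genes fell in the same 3 comparisons with control. All 14 of a list of such genes (among them MX1, an antiviral GTPase, and CXCL10, a chemokine) passed the test in each. The shares of all tested genes called were 3.16% in OE-MMP28, 20.7% in anti-IL-8 and 11.0% in anti-VEGFA. This list was chosen with earlier results of these data known, so its calls are a description and not independent evidence. Their median log2 fold change was -2.95 in OE-MMP28, -3.01 in anti-IL-8 and -2.50 in anti-VEGFA, against -0.02 to 0.02 for all tested genes. None of the 14 was called by edgeR between the 3 OE-MMP28 groups, where unadjusted p-values under 0.05 numbered 5 in anti-IL-8 against OE-MMP28, 3 in anti-VEGFA against OE-MMP28 and 6 in anti-VEGFA against anti-IL-8, beside 29.3%, 18.8% and 15.0% of all genes. Of the 5, 1 was higher and 4 were lower in anti-IL-8, while the 3 and the 6 were all higher in anti-VEGFA. In these comparisons DESeq2 called 3, 2 and 3 of the 14 and limma voom called none. SERPING1 had log2 fold changes of 0.45, 0.23 and -0.23 in them, in the order given, none called by edgeR. SERPING1 stood 1.08 to 1.95 log2 units below the control mean in the 9 libraries outside control. That lay within the spread of that list, from its lowest to its highest gene, which is wide. In each of the 9 it was above the median of the list, which stood at -3.16 to -2.49. In the same libraries C2 stood at -0.33 to 0.64 and C3 at -0.19 to 0.42. C1S ranged from -1.61 to -0.01 and lay within the spread of the list in 4 of the 9.

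**Figure D2:**
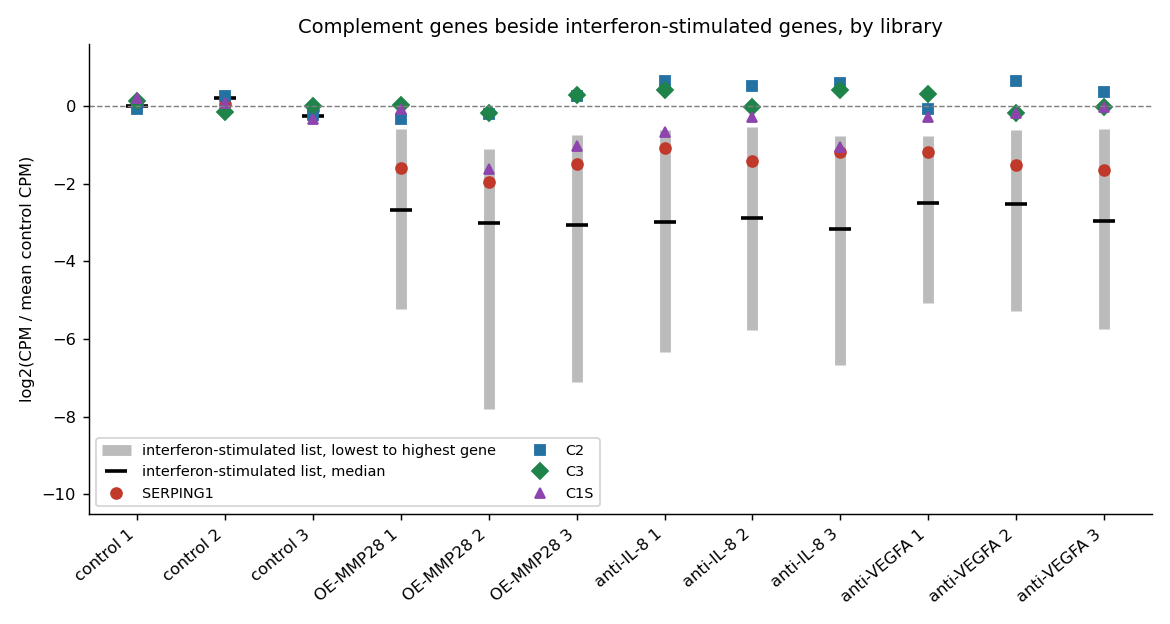
Level of SERPING1, C2, C3 and C1S in each library as log2 of CPM over the mean control CPM, beside the median (black bar) and the lowest-to-highest range (grey) of 14 interferon-stimulated genes. In the 9 libraries outside control, SERPING1 lay inside the grey range and above the black bar. C2 and C3 lay above the grey range, and C1S lay inside it in 4 of 9.

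By similarity of profile, SERPING1 was closest to ATF3 (Pearson r = 0.98), UBE2L6 (0.98) and UBA7 (0.98), among 8088 genes with a mean of 200 counts or more, over 12 libraries. These libraries share the control-against-rest step, and without control the coefficients over 9 libraries were 0.89, 0.92 and 0.88. ATF3 encodes a stress-response transcription factor, and UBE2L6 and UBA7 encode enzymes that attach the interferon-induced modifier ISG15. The closest profiles to C3 were MAN2B1 (0.95), CD4 (0.95) and MMP2 (0.92), and the closest to C2 were TATDN2 (0.92), DHRS4 (0.92) and TRAPPC6A (0.92). For C3AR1 they were HSP90AB1 (0.93), MMP1 (0.87) and GPNMB (0.87), for C1R they were CDK5RAP1 (0.90), C11orf24 (0.89) and ELP5 (0.89), and for C1S they were CDCP1 (0.82), RFLNB (0.81) and COL11A2 (0.80). Each trio is the top of a search over all these genes and is given as a description.

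C3AR1, the C3a receptor, was higher in OE-MMP28 than in control in all libraries, although the difference did not pass the adjusted test. Its values were 23.2, 19.3 and 19.5 CPM in control, 28.0, 26.3 and 30.4 CPM in OE-MMP28, 27.9, 20.9 and 27.2 CPM in anti-IL-8 and 28.6, 20.5 and 29.5 CPM in anti-VEGFA. In each antibody group, 2 libraries lay with OE-MMP28 and replicate 2 lay within the control range. The log2 fold change of OE-MMP28 against control was 0.45 (SE 0.16, 95% interval 0.12 to 0.78, unadjusted p = 0.011, adjusted p = 0.17). Against OE-MMP28 it was -0.16 (95% interval -0.49 to 0.17) in anti-IL-8 and -0.11 (95% interval -0.44 to 0.23) in anti-VEGFA.

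Counted over the 6 tested members, OE-MMP28 against control gave 1 call at an adjusted p under 0.05 (SERPING1, lower), beside 3.16% of all 16046 tested genes, and 3 at an unadjusted p under 0.05, beside 14.5%. Anti-IL-8 against control gave 2 calls (SERPING1 lower, C2 higher) beside 20.7%, and 3 unadjusted beside 35.9%. Anti-VEGFA against control gave 1 call (SERPING1, lower) beside 11.0%, and 2 unadjusted beside 27.0%. With 6 members tested, these counts are not read as a result about the members as a group.

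Between the groups that share MMP28 overexpression, edgeR called none of the 6. In anti-IL-8 against OE-MMP28, where 0% of all genes were called, C2, SERPING1 and C1R had unadjusted p-values under 0.05, beside 29.3% of all genes, all 3 with higher values under the antibody. DESeq2 called 1 member there, C2, and 2376 genes in all, and limma voom called none of either. In anti-VEGFA against OE-MMP28 the adjusted background was 0.343%, and 1 member (C2, higher) had an unadjusted p under 0.05, beside 18.8%. In anti-VEGFA against anti-IL-8 the adjusted background was 0.199%, and no member reached an unadjusted p under 0.05, beside 15.0%. DESeq2 and limma voom called no member in the last 2 comparisons.

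The median log2 fold change of the tested members was 0.00 in OE-MMP28 against control, 0.33 in anti-IL-8 against OE-MMP28 and 0.32 in anti-VEGFA against OE-MMP28. The medians over all tested genes in these comparisons were 0.02, -0.02 and 0.00. The members' median was 0.28 in anti-IL-8 and 0.19 in anti-VEGFA against control, and -0.22 in anti-VEGFA against anti-IL-8, beside -0.02, 0.00 and 0.02 over all tested genes. These medians leave out the 4 members that did not pass the filter.

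**Figure D3:**
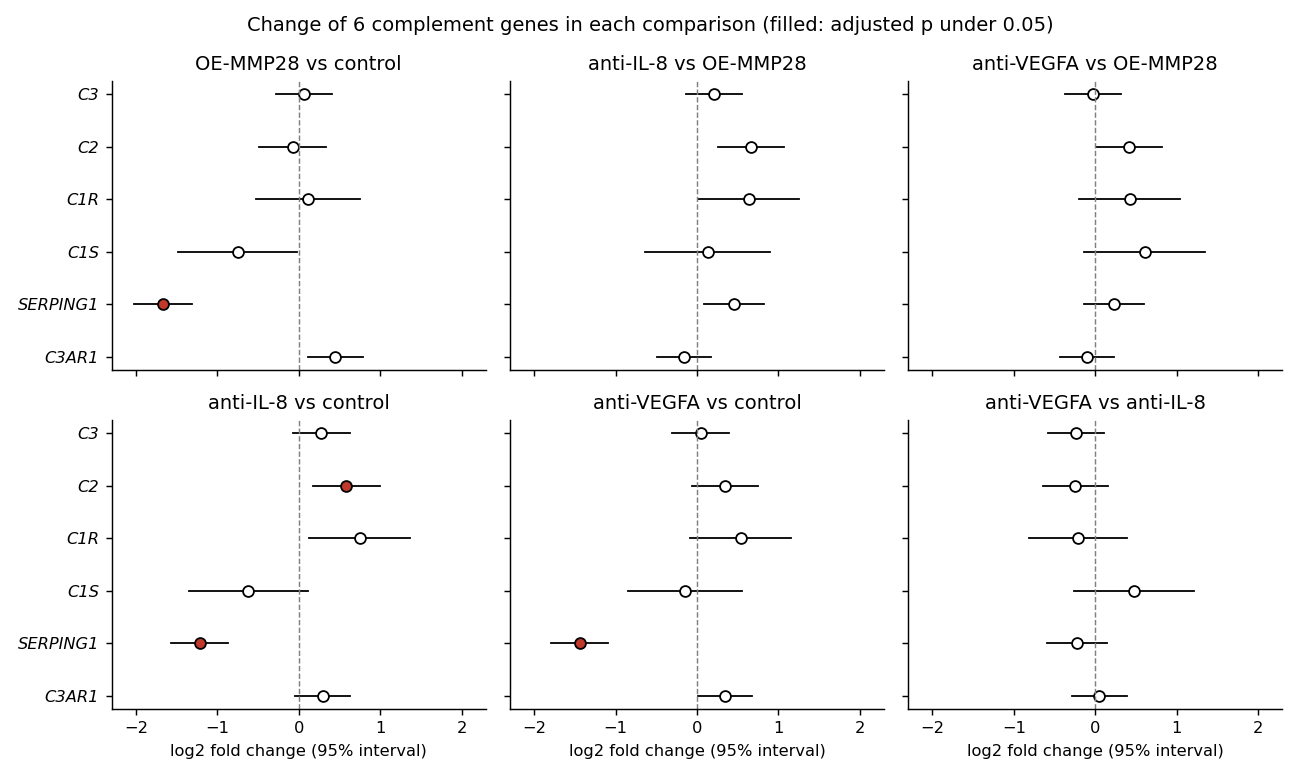
Log2 fold change and 95% interval of each tested member in the 6 comparisons, filled where the edgeR adjusted p was under 0.05. SERPING1 was filled in the 3 comparisons with control and C2 in anti-IL-8 against control, and no member was filled in the other 3 comparisons.

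Of 40 other complement genes in a list of components, regulators and receptors, 24 passed the filter. In OE-MMP28 against control 1 rose and none fell, in anti-IL-8 against control 6 rose and 2 fell, in anti-VEGFA against control 2 rose and 2 fell, and in anti-VEGFA against anti-IL-8 1 rose. The shares of all tested genes called in these comparisons were 3.16%, 20.7%, 11.0% and 0.199%. In OE-MMP28 against control, 4 were higher and 2 (C5 and C1RL) lower at an unadjusted p under 0.05, beside 14.5% of all genes. DESeq2 called 2 higher and limma voom 1 higher there, and neither called a lower one. None was called by edgeR in anti-IL-8 or anti-VEGFA against OE-MMP28, where 8 and 4 had an unadjusted p under 0.05 (beside 29.3% and 18.8% of all genes), DESeq2 called 5 and 2, and limma voom called 0 and 1. The median log2 fold change of the 24 was 0.10, 0.26 and 0.23 in the 3 comparisons with control, in the order given.

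Among receptors, C5AR1, the receptor of the fragment C5a, rose in OE-MMP28 from 183 to 277 mean CPM (log2 fold change 0.60, SE 0.14, adjusted p = 0.025). Control libraries were at 182.5, 181.5 and 183.5 CPM and OE-MMP28 libraries at 275.0, 266.1 and 290.4 CPM, without overlap. It rose in anti-IL-8 against control as well (0.62, adjusted p = 0.0078). In anti-VEGFA against control it had 0.35 (adjusted p = 0.12) and was not called, with replicate 2 of anti-VEGFA at 181.1 CPM. In OE-MMP28 against control the call held in 17 of 22 alternatives. It was lost with library totals in place of TMM (0.059) and without control replicate 1 (0.11), 2 (0.12) or 3 (0.094) or OE-MMP28 replicate 1 (0.082). ITGB2 and ITGAX, which encode the chains of complement receptor 4, rose in anti-IL-8 against control by 0.61 (adjusted p = 0.026) and 0.45 (adjusted p = 0.046), while ITGAM, the alpha chain of complement receptor 3, had a log2 fold change of 0.08 and was called by edgeR, DESeq2 or limma voom in no comparison. The ITGB2 call held in 16 of 22 alternatives and was lost without control replicate 2 (0.092) or 3 (0.098) or anti-IL-8 replicate 1 (0.072) or 3 (0.094). The ITGAX call held in 11 and was lost without any single control or anti-IL-8 library (0.057 to 0.17) and without OE-MMP28 replicate 1 (0.061). In anti-IL-8 against OE-MMP28, ITGB2 had 0.49 (adjusted p = 0.094) and ITGAX had 0.25 (adjusted p = 0.28), neither called by edgeR.

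Among regulators, the membrane regulators CD46, CD55 and CD59, which protect host cells from complement, were called by edgeR in no comparison, with log2 fold changes of 0.02, 0.09 and 0.17 in OE-MMP28 against control. CD46 had -0.41 (adjusted p = 0.085) and CD55 had -0.32 (adjusted p = 0.10) in anti-IL-8 against OE-MMP28, and in anti-IL-8 against control CD46 had -0.39 (adjusted p = 0.062) and CD59 had 0.33 (adjusted p = 0.085), all without overlap. DESeq2 called these 4 differences (adjusted p = 0.041, 0.035, 0.044 and 0.047) and limma voom called none of them. CLU, which encodes the fluid-phase regulator clusterin, rose in anti-IL-8 against control (0.68, adjusted p = 0.021) and was not called without control replicate 2 (0.11) or anti-IL-8 replicate 3 (0.097). Its log2 fold change was 0.46 in OE-MMP28 against control and 0.22 in anti-IL-8 against OE-MMP28, neither called by edgeR.

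Of the remaining components, CFD, the factor D protease that activates factor B, rose in anti-IL-8 against control (0.81, SE 0.23, adjusted p = 0.021), and its mean of 87.3 FPKM (39.9 to 125 across libraries) overlapped the range of C3. CFP, which encodes properdin, the stabilizer of the alternative-pathway enzyme, rose in anti-VEGFA against control (1.09, SE 0.27, adjusted p = 0.016). Against OE-MMP28, CFD had 0.62 in anti-IL-8 (adjusted p = 0.096) and CFP had 1.12 in anti-VEGFA (adjusted p = 0.071), neither called by edgeR. C5 fell in both antibody groups against control, by 0.92 in anti-IL-8 (adjusted p = 0.0058) and 0.93 in anti-VEGFA (adjusted p = 0.0070) on the log2 scale. C1RL fell in the same comparisons, by 0.70 (adjusted p = 0.010) and 0.86 (adjusted p = 0.0042) on the log2 scale. The CFD call held in 18 of 22 alternatives and was lost in the limma fit on log2 FPKM with pseudocount 1 (0.050) and without control replicate 2 (0.081) or 3 (0.079) or anti-IL-8 replicate 3 (0.077), and the CFP call without control replicate 1 (0.057) or 3 (0.073) or anti-VEGFA replicate 2 (0.052). The C1RL call in anti-IL-8 was lost without control replicate 2 or anti-IL-8 replicate 1 (0.057 each).

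C9, a pore-forming terminal component, was highest in anti-VEGFA. Its counts were 34, 37 and 57 in control, 69, 106 and 73 in OE-MMP28, 84, 69 and 53 in anti-IL-8 and 168, 196 and 155 in anti-VEGFA. Every anti-VEGFA library was above every other library. Its log2 fold change was 0.95 in OE-MMP28 against control (SE 0.26, edgeR adjusted p = 0.061). In anti-VEGFA against OE-MMP28 it was 1.07 (SE 0.24, edgeR adjusted p = 0.059). Neither difference was called by edgeR, and in both the libraries did not overlap. C9 rose in anti-VEGFA against control (log2 fold change 2.02, SE 0.26, adjusted p = 4.7e-05), against anti-IL-8 (1.24, SE 0.24, adjusted p = 0.041) and, in anti-IL-8, against control (0.78, SE 0.27, adjusted p = 0.047). The first call held in 22 of 22 alternatives, the second in 11 and the third in 12, and the last 2 were lost on leaving out any of the 3 anti-IL-8 libraries or control replicate 1 or 2. The adjusted p-values were then 0.055 to 0.28 in anti-VEGFA against anti-IL-8, where any single anti-VEGFA library left out also ended the call, and 0.058 to 0.19 in anti-IL-8 against control. C9 shares 119 exonic bases (4.03%) with DAB2 on the same strand, a gene with 3815 to 5763 counts per library, and the part of DAB2 reads in the C9 counts was not tested. C4A and C4B, the near-identical genes of component C4, had 95 and 91 counts over all libraries, and reads cannot be split reliably between them.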

How the data were processed

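RNA-seq was done on 12 libraries in 4 groups of 3. Per the submitters' processing notes, reads were aligned with HISAT2 2.0.5 and counted with featureCounts 1.5.0-p3; the start and end of 58724 of 58735 genes match GENCODE 29 (GRCh38). The deposited table holds the authors' raw counts per gene and FPKM values, the authors' counts scaled by exonic length and library size. Its 30 columns of the authors' own comparisons (fold changes, p-values) were not used. Strand setting and treatment of reads over several genes are not given in the sources used here. The study's methods speak of lysed tumor cells, while the labels name THP-1.

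Counts were fitted in edgeR 4.0.16 (R 4.3.3) across all 12 libraries, with TMM scaling, the filterByExpr filter (16046 genes kept), the quasi-likelihood test and Benjamini-Hochberg adjustment over all tested genes, with 0.05 as threshold, for 6 pairwise comparisons. CPM values are TMM-scaled. The steps were tested on simulated data. The study's methods name limma on an unadjusted p. The unadjusted p-values given here are those of edgeR, and limma calls were counted at the adjusted threshold. Alternatives were DESeq2 1.42.0, limma 3.58.1 (voom, and log2 FPKM with pseudocounts 1 and 0.1), scaling by library totals, a fit without the filter, a stricter filter (10 counts or more in each library), fits of 2 groups, a replicate block, the mitochondrial share as covariate, the unadjusted threshold and leaving out each library. Intervals are at 95%, and floors of 3 counts cover counting error only.

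All 10 members are named. Other complement genes are named where called in a comparison, besides ITGAM, ITGB2, CD46, CD55, CD59 and C5AR1; similar genes are the 3 of highest Pearson r on log2 CPM for members with a mean of 10 counts or more. C4A, C4B, CD68, LYZ, MMP28, KRT8, MUC1, EPCAM, COL1A1, LUM, CD14, DAB2 and AL645922.1 were named after their values were seen. Members and lists were chosen with earlier results of these data known. Promoters came from RefSeq tables of GRCh38.p14, and those of C3, C1S, C1QC and SERPING1 are not shown. A complement gene and an interferon-stimulated gene of the planned lists are not reported here.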

Additional observations from a re-analysis of the deposited data

How the results depend on the processing

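SERPING1 was called against control under every alternative run (22 for each of the 3 comparisons), and no called value of a member changed sign. At the unadjusted threshold, 3 members were called in OE-MMP28 against control and 3 in anti-IL-8 against OE-MMP28, beside 14.5% and 29.3% of all genes. Called members numbered 1 in anti-VEGFA against OE-MMP28 and 2 in anti-VEGFA against control, beside 18.8% and 27.0%. In anti-IL-8 against OE-MMP28, 1 member was called by DESeq2, without the filter and with the mitochondrial share as covariate, and leaving out single libraries gave 0 to 2 calls; the number of genes called in all moved with it, from 0 with all libraries to 2376 by DESeq2, 1438 without the filter, 1739 with the covariate, 4125 on leaving out the third OE-MMP28 library and 1166 on leaving out the second anti-VEGFA library, and the cause was not tested. In anti-IL-8 against control, both limma fits on FPKM and library totals left 1 call. The fit of the 2 groups alone gave 3, as did the unadjusted threshold (beside 35.9% of all genes), and leaving out single libraries gave 1 to 2. Genes called in all in anti-VEGFA against OE-MMP28 (55) ran from 1 in the fit of the 2 groups alone to 1402 without OE-MMP28 replicate 3, with no member called. Same-numbered libraries correlated at -0.16 to 0.24 in their deviations from the group means, so the numbers were not taken as pairs; with the replicate block the called members were 1, 0 and 0 in OE-MMP28 against control and the antibodies against OE-MMP28, and 2, 1 and 0 in the other comparisons, as without it, while genes called in anti-IL-8 against OE-MMP28 rose from 0 to 795, and C9 and ITGAX lost calls in anti-IL-8 against control (adjusted p = 0.060 and 0.056), as did C9 in anti-VEGFA against anti-IL-8 (0.066). Depth limits C1QA, C1QB, C1QC and CFB, which could not be tested, and C1R and C1S, whose intervals span more than 1 log2 unit.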
